A study of Mus musculus with 24 samples.

Results

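The imprinted growth genes followed here are *Igf2*, *H19*, *Dlk1*, *Mest*, *Plagl1*, *Cdkn1c*, *Peg3*, *Grb10* and *Igf2r*. They were chosen by symbol from the 23420 genes listed for each comparison, and all 9 were found in each of the 4 comparisons and passed the filter on low values there. Their choice used no measured value, but it was made with other results of these lungs known.

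The data are bulk RNA-seq of the left lung lobe of newborn mice at postnatal day 2 (P2) and day 5 (P5), 24 lungs in 8 groups of 3. Sox9Cre is a Cre recombinase expressed from the *Sox9* locus, which is active in the distal lung epithelium. Mutant lungs carried Sox9Cre/+ with Vangl2f/f or with Ror2f/f, that is, both floxed copies of a transmembrane core protein of planar cell polarity or of a tyrosine kinase-like receptor for *Wnt5a*. Each mutant had its own lungs labelled control, of genotype WT, at each age, so that the 4 comparisons are *Vangl2* P2, *Vangl2* P5, *Ror2* P2 and *Ror2* P5. For the *Vangl2* mutants of P5 and the *Ror2* mutants of P2 the genotype field gives the gene of the other mutant, and the samples were grouped by their titles. The whole lobe was sequenced, so each value sums the epithelium, in which the Cre is known to act, with mesenchyme, vessels and blood, and in such bulk RNA fewer cells of a type cannot be told apart from less RNA per cell.

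Imprinted genes are transcribed mainly from a single parental copy. Many of those transcribed from the paternal copy (*Igf2*, *Dlk1*, *Mest*, *Plagl1* and *Peg3*) favour growth of the fetus, while several transcribed from the maternal copy (*H19*, *Cdkn1c*, *Grb10* and *Igf2r*) restrain it. Many members of this group are highly expressed in fetal mesenchyme and decline in several organs after birth, as growth slows. *Igf2* encodes a fetal growth factor, *H19* a long noncoding RNA from the same locus that shares its enhancers, and *Igf2r* the receptor that carries IGF2 to lysosomes for degradation. *Grb10* encodes an adaptor that dampens signalling by the insulin and IGF receptors, *Cdkn1c* an inhibitor of cyclin-dependent kinases, and *Dlk1* a transmembrane protein related to Notch ligands. *Mest* encodes an enzyme-like protein of the endoplasmic reticulum, *Plagl1* a zinc finger transcription factor and *Peg3* a large zinc finger protein.

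In the mouse genome build mm10 (GENCODE annotation of the same assembly), *Dlk1* lies at chr12:109452823-109463336, plus strand, *Mest* at chr6:30723547-30748465, plus strand and *Grb10* at chr11:11930508-12038683, minus strand. *Igf2* at chr7:142650766-142666816, minus strand, *H19* at chr7:142575529-142578143, minus strand, *Cdkn1c* at chr7:143458339-143461050, minus strand and *Peg3* at chr7:6703892-6730431, minus strand share a chromosome, and the first 3 of these lie within the same distal region of it. *Plagl1* lies at chr10:13060504-13131694, plus strand and *Igf2r* at chr17:12682406-12769664, minus strand. *H19* is annotated as a long noncoding RNA and the others as protein coding, and all values are summed over a whole gene.

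Allele-specific methylation at CG dinucleotides is a mark of imprinted regions. *Dlk1* had the largest upward difference of the 9 in each comparison and *Mest* or *Grb10* the largest downward one. The sequences just before the start of *Dlk1*, *Mest* and *Grb10* are therefore shown. They are the 250 bases before an annotated start (for *Mest* and *Grb10*, which have several, the start with the most CG around it), from RefSeq on build GRCm38.p6 (the assembly of mm10), 5′ to 3′ on the strand of the gene, with each CG in capitals.
*Dlk1*, chr12:109452573-109452822, plus strand: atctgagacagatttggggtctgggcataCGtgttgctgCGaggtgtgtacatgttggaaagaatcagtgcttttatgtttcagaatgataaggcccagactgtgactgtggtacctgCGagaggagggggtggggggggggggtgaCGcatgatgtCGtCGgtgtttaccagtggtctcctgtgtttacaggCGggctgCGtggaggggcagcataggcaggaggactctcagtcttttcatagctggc
*Mest*, chr6:30737800-30738049, plus strand: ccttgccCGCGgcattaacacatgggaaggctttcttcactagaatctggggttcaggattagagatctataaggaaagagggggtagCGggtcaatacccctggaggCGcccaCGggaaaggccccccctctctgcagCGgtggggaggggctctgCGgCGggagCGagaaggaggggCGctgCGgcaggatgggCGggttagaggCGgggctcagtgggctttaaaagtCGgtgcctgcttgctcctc
*Grb10*, chr11:12037421-12037670, minus strand: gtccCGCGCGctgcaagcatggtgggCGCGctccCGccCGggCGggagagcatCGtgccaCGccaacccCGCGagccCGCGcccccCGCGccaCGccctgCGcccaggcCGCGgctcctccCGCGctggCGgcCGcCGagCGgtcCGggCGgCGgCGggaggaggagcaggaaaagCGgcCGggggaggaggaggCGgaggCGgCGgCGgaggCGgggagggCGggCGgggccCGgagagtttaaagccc
Over the full RefSeq window of 300 bases (250 before the start and 50 after it), the *Dlk1* promoter holds 9 CG dinucleotides, the *Mest* promoter 17 and the *Grb10* promoter 45, against a median of 7 over all 32851 promoter windows. Of all windows, 45.8% hold at least as many as *Dlk1*, 31.4% at least as many as *Mest* and 1.9% at least as many as *Grb10*. Another start of *Mest* has 8 in its window and another of *Grb10* has 9. Windows were found for 7 of the 9 genes. The 8-letter motif GGGGCCCC, a sequence bound by the protein that *Plagl1* encodes and the same on both strands, occurs in 1.08% of all windows. It is found once in the window of *Peg3* and in none of the windows of *Igf2*, *Dlk1*, *Mest*, *Plagl1*, *Grb10* or *Igf2r*. No binding or methylation was measured in these lungs.

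Values are given as normalized counts, which are the reads on a gene after division by the lung's size factor. Between 16178031 and 21546673 reads fell on genes in 23 of the 24 lungs. Control replicate 1 of *Ror2* P5, with 13823693 reads, lacks reads on part of the genome (3473 of 3473 well expressed genes on chromosomes 6, 7, 8, 9 and X and 582 of 811 on chromosome 5 are at 0), so its values were set to missing on chromosomes 5 to 9 and X. *Igf2*, *H19*, *Mest*, *Cdkn1c* and *Peg3* therefore rest on 2 control lungs there, and *Dlk1*, *Plagl1*, *Grb10* and *Igf2r* on 3. *Vangl2* P5 mutant replicate 3 stands apart by 9 markers of thymus and lymphoid cells, whose summed normalized count was 24447 against 1202 to 2034 in the other 5 lungs, and by 12 skeletal muscle markers, at 5056 against 105 to 212. *Vangl2* P5 control replicate 3 held a summed normalized count of 4596 over 9 brown fat markers against 118 to 987 in the other 5. The lung markers *Sftpc* of alveolar type II cells, *Ager* of type I cells and *Nkx2-1* of lung epithelium had normalized counts of at least 91779, 22918 and 3025 in every lung with a value. The normalized count of *Vangl2* was 249, 302 and 281 in control and 241, 224 and 173 in mutant lungs of *Vangl2* P2, and 369, 314 and 292 against 169.5, 148 and 166 at P5. That of *Ror2* was 451, 581 and 519.8 against 479, 349 and 366 in *Ror2* P2 and 526, 368 and 597 against 362, 439.7 and 521 in *Ror2* P5. Every *Vangl2* mutant lay below every control (adjusted p = 0.241 at P2 and 0.0604 at P5, limma; 0.0194 at P5 with the replicate numbers as a block), while the *Ror2* groups overlapped at both ages, so the level of *Ror2* in whole-lobe RNA gives no check of that label.

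In control lungs the 9 genes were expressed at very different levels. For levels in RPM (reads scaled to an equal total on genes in every lung), control replicate 1 of *Ror2* P5 was left out for all 9 genes, since its total lacks whole chromosomes, so every *Ror2* P5 control level in RPM is a mean of 2 lungs. In RPM per kilobase of exon, the control means of *Vangl2* P2 ran from 17.8 for *Peg3* and 20.5 for *Dlk1*, through 34.3 for *Igf2r*, 50.4 for *Plagl1*, 58.5 for *Igf2*, 67.9 for *Grb10* and 69.6 for *Cdkn1c*, to 239 for *Mest* and 352 for *H19*. *Mest* and *H19* were the 2 highest on this scale in the controls of all 4 comparisons. The lowest in *Ror2* P5 controls was *Dlk1*, at 5.84.

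Most of the genes had lower levels at P5 than at P2, as means over lungs in RPM. The ages are in separately normalized files with separate lungs, so this is a description without a test. In *Ror2* controls *Igf2* was 386 ± 16.3 at P2 and 105 ± 12.1 at P5 (mean ± SD, n = 3 and 2), and *H19* was 994 ± 90.8 and 301 ± 36.5. The ratio of P5 to P2 means was 0.273 for *Igf2*, 0.303 for *H19*, 0.322 for *Dlk1*, 0.559 for *Mest*, 0.608 for *Plagl1*, 0.635 for *Cdkn1c* and 0.677 for *Igf2r* in these controls. *Grb10* had a ratio of 1.02 in them and of 0.956 in *Vangl2* controls, where its lungs overlapped between the ages. In *Vangl2* controls the ratios were nearer to 1, at 0.64 for *Igf2*, 0.816 for *H19*, 0.74 for *Dlk1* and 1.03 for *Peg3*. Of the ratios of all 9 genes in control and mutant lungs, the highest was that of *Dlk1* in *Vangl2* mutants, at 1.17, with a range of 128 to 511 RPM at P2 and 260.0 to 361 at P5.

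**Figure D1:**
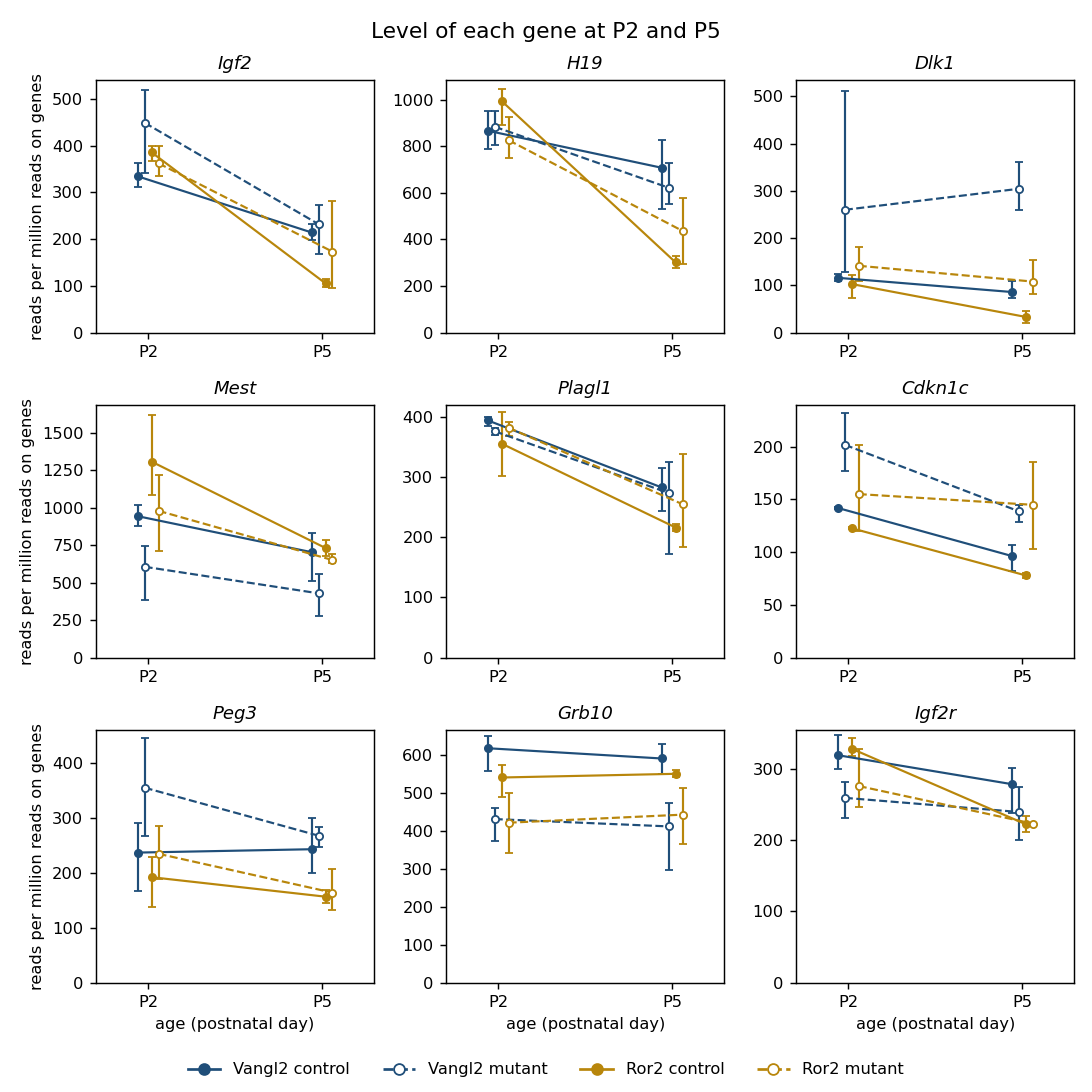
Mean level of each gene in RPM (y axis, from 0) at P2 and P5 (x axis), with bars from the lowest to the highest lung; filled points and solid lines are control lungs, open points and dashed lines mutant lungs, 3 lungs per group and 2 for *Ror2* P5 controls, where replicate 1 is left out for every gene. *Igf2* and *H19* had lower means at P5 than at P2 in all 4 series, and *Dlk1* of the *Vangl2* mutants did not.

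Controls of the same age differed between the *Vangl2* and *Ror2* comparisons. At P5 their mean RPM was 214 and 105 for *Igf2* and 708 and 301 for *H19*. At P2 it was 335 and 386, and 867 and 994. Steps between groups of different comparisons also hold this difference and were not tested. Ordered over the 8 groups by mean RPM, *Dlk1* ran from *Vangl2* P5 mutants (304 ± 51.9) through *Vangl2* P2 mutants, *Ror2* P2 mutants, *Vangl2* P2 controls, *Ror2* P5 mutants, *Ror2* P2 controls and *Vangl2* P5 controls to *Ror2* P5 controls (33.0 ± 17.6). Every pair of neighbours had overlapping lungs except the last, which rests on the 2 *Ror2* P5 controls used. The control left out had the highest normalized count of *Dlk1* in its group, 1111 against 887 and 397 in replicates 2 and 3. *Igf2* ran from *Vangl2* P2 mutants (449 ± 95.3) to *Ror2* P5 controls (105 ± 12.1), and its neighbours were separate only between the 4 groups of P2 and the 4 of P5. *H19* ran from *Ror2* P2 controls (994 ± 90.8) to *Ror2* P5 controls (301 ± 36.5), with the 4 groups of P2 above the 4 of P5 and overlapping lungs at every step. *Cdkn1c* ran from *Vangl2* P2 mutants (202 ± 27.7) to *Ror2* P5 controls (77.9 ± 3.03), and its 3 lowest groups, the *Ror2* P2, *Vangl2* P5 and *Ror2* P5 controls, were each separate from the group above. *Mest* ran from *Ror2* P2 controls (1308 ± 278) to *Vangl2* P5 mutants (429 ± 143), with 1 separate step, between *Vangl2* P2 and *Ror2* P5 controls. All 4 control groups of *Grb10* stood above all 4 mutant groups, from 617 ± 50.9 in *Vangl2* P2 controls to 411 ± 99.7 in *Vangl2* P5 mutants, though neighbours overlapped at every step. Neighbours also overlapped throughout for *Plagl1* (from 394 ± 8.76 in *Vangl2* P2 controls to 216 ± 9.33 in *Ror2* P5 controls), *Peg3* (from 355 ± 89.2 in *Vangl2* P2 mutants to 156 ± 16.2 in *Ror2* P5 controls) and *Igf2r* (from 328 ± 12.8 in *Ror2* P2 controls to 222 ± 16.3 in *Ror2* P5 controls).

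Each mutant was then compared with its own controls, which asks whether loss of *Vangl2* or *Ror2* in the epithelium was accompanied by a change in the growth genes of the whole lobe. By the labels only the mutants carried Sox9Cre, so an effect of Sox9Cre itself cannot be told apart from that of the loss. *Dlk1* rose in *Vangl2* P5 lungs and *Cdkn1c* rose in *Vangl2* P2 lungs, and no other gene of the 9 passed the test, run without a block, in any comparison. Same-numbered lungs of *Vangl2* P5 deviated together (r = 0.463, 0.462 and 0.277). With the replicate numbers as a block there, *Mest* fell as well (adjusted p = 0.0193, limma), in a fit that called 8.95% of all genes. The test was limma on log2(normalized count + 1), with p adjusted (Benjamini-Hochberg) across all genes tested and a threshold of 0.05, and fold changes are on that log2 scale. The test called 1 of the 9 genes in *Vangl2* P2, where it called 3.59% of 17448 genes (1.5% higher and 2.09% lower; edgeR, on whole reads, called 1 of the 9 and 3.67% of all), and 1 of 9 in *Vangl2* P5, where it called 0.563% of 17410 (0.534% higher and 0.0287% lower; edgeR called 1 of the 9 and 0.396% of all). It called 0 of 9 in *Ror2* P2, where it called 0% of 17541 genes (0 also with edgeR, and 666 with DESeq2), and 1 of the 9 had an unadjusted p under 0.05 against 19.3% of all genes. It called 0 of 9 in *Ror2* P5, where it called 0.128% of 17179 (edgeR called 0 of the 9 and 0.134% of all, and DESeq2 called 1 of the 9), and 3 of the 9 had an unadjusted p under 0.05 against 18.4% of all genes. The lungs of mutant and control did not overlap for 5, 3, 0 and 4 of the 9 genes in *Vangl2* P2, *Vangl2* P5, *Ror2* P2 and *Ror2* P5, against 29.6%, 25.7%, 25.7% and 29.9% of all genes. An exact permutation test of single genes cannot go below p = 0.1 with 3 lungs against 3, or below 0.2 with 2 against 3.

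**Figure D2:**
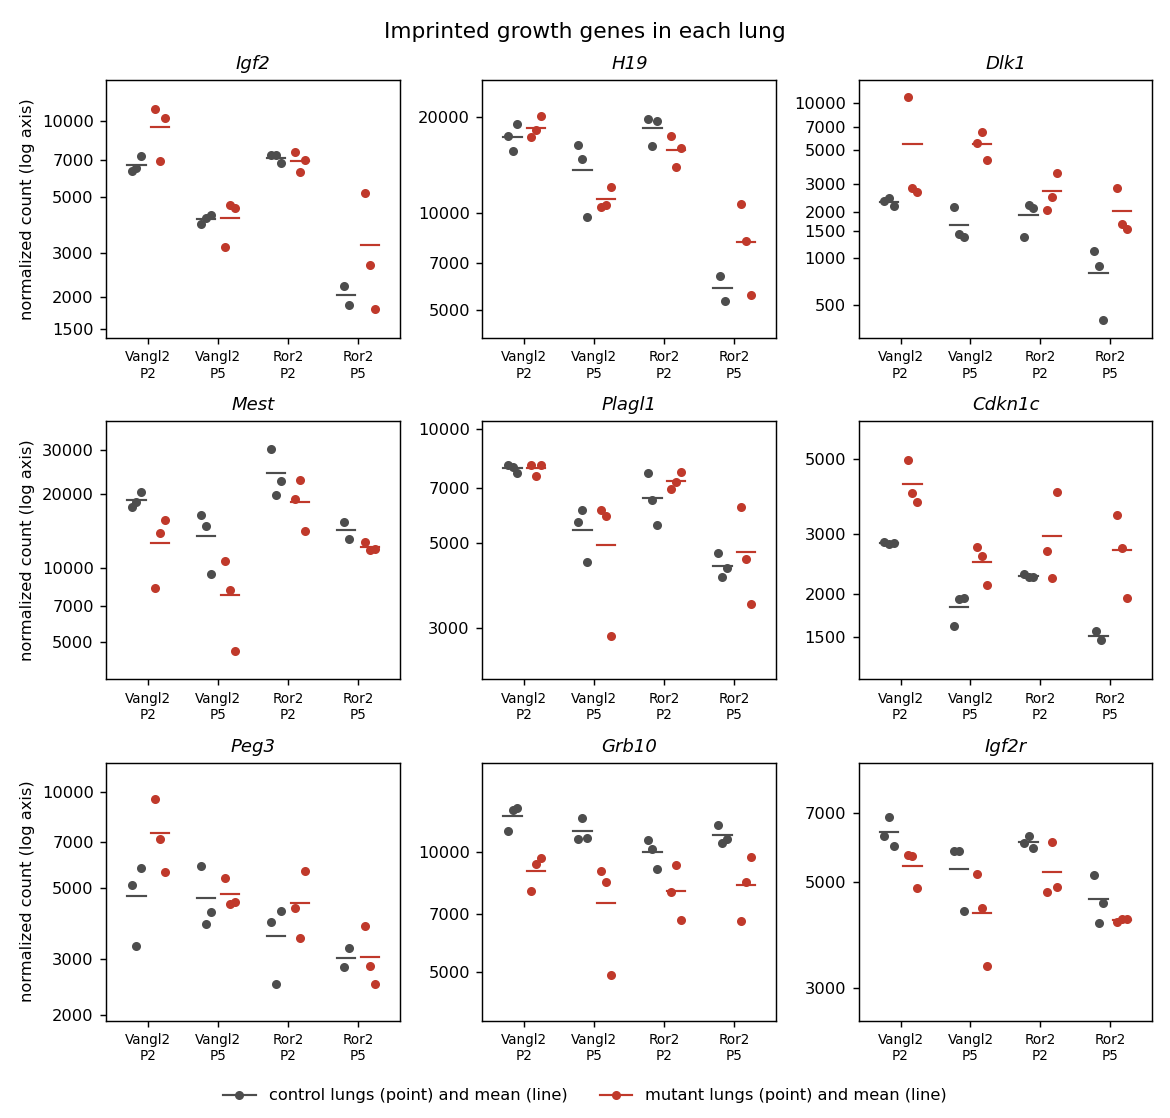
Normalized count of each gene in each lung (y axis, log scale) in the 4 comparisons (x axis), controls in grey and mutants in red, lines at the group means; control replicate 1 of *Ror2* P5 is left out for *Igf2*, *H19*, *Mest*, *Cdkn1c* and *Peg3*. Every mutant lung lies above every control for *Dlk1* and for *Cdkn1c* in all comparisons but *Ror2* P2, and below for *Grb10* in the same 3.

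*Dlk1*, the transmembrane protein related to Notch ligands, had the largest differences. In *Vangl2* P5 its normalized count was 2130.3, 1427 and 1376 in control and 5529, 6542 and 4316 in mutant lungs. All 3 mutants were above all 3 controls, and the mean rose from 1644 ± 422 (SD, n = 3) to 5462 ± 1114 (SD, n = 3), 3.32-fold (log2 fold change 1.74 ± 0.22 (SE), adjusted p = 0.0202, limma; adjusted p = 0.0289 with edgeR on whole reads). With the replicate numbers as a block the adjusted p was 0.00622 (limma), in a fit that called 8.95% of all genes. The fits that left out a lung had no block. Without mutant replicate 3, the lung with thymus and muscle markers, the log2 fold change was 1.90 and the adjusted p 0.0627. That lung had the lowest *Dlk1* of the 3 mutants. Leaving out control replicate 2, control replicate 3, mutant replicate 1 or mutant replicate 2 also took the adjusted p past the threshold, to 0.0975, 0.0645, 0.065 and 0.0598, with a log2 fold change of at least 1.60 each time.

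In the other comparisons *Dlk1* had higher means in mutants but did not pass the test. In *Ror2* P5 its normalized count was 1111, 887 and 397 in control and 2839, 1654 and 1532 in mutant lungs, with no overlap (log2 fold change 1.40 ± 0.39 (SE), adjusted p = 0.156). In *Vangl2* P2 the controls were 2341, 2435 and 2157 and the mutants 10942, 2854 and 2689 (log2 fold change 0.92 ± 0.48 (SE), adjusted p = 0.298). Mutant replicate 1 alone stood far above the other 5 lungs, and without it the log2 fold change was 0.26. In *Ror2* P2 the groups overlapped, with 1367, 2204 and 2111 in control and 2054, 2497 and 3573 in mutant lungs (log2 fold change 0.51 ± 0.25 (SE), adjusted p = 0.298). The *Dlk1* means were thus higher in mutants in 4 of 4 comparisons, which was so for 18.7% of 16719 genes tested in all of them.

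The maternally expressed noncoding RNAs of the *Dlk1* cluster on chromosome 12 (*Meg3*, *Rian* and *Mirg*) also had higher means in mutants. *Meg3* and *Rian* were among the listed imprinted genes with the lowest unadjusted p, while *Mirg* was added after its values were seen. *Meg3* was 2118, 2694 and 3184 in control and 4238, 6544 and 4659 in mutant lungs of *Vangl2* P5 (log2 fold change 0.94 ± 0.21 (SE), adjusted p = 0.0909; adjusted p = 0.0192 with the replicate numbers as a block). In *Ror2* P5 it was 1279, 922 and 943 in control and 3301, 3000.4 and 1523 in mutant lungs (log2 fold change 1.25 ± 0.28 (SE), adjusted p = 0.122), and in *Ror2* P2 4136, 4448 and 3491 against 5665, 5404 and 7536 (log2 fold change 0.61 ± 0.15 (SE), adjusted p = 0.203). The groups did not overlap in these 3 comparisons, and 4.62% of all genes had every mutant above every control in at least 3. In *Vangl2* P2 the *Meg3* groups overlapped, with a log2 fold change of 0.36 ± 0.18 (SE, adjusted p = 0.271). *Rian* differed by 0.26, 0.53, 0.09 and 0.38, and *Mirg* by 0.39, 1.05, 0.57 and 0.76 (log2 fold changes in *Vangl2* P2, *Vangl2* P5, *Ror2* P2 and *Ror2* P5), none past the test. Of 16719 genes tested in all 4 comparisons, 18.7% were higher in mutants in each. In *Vangl2* P2, the mutant lung with the highest *Dlk1*, replicate 1, was also the highest for *Meg3* (6777 against 6198 and 4159).

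**Figure D3:**
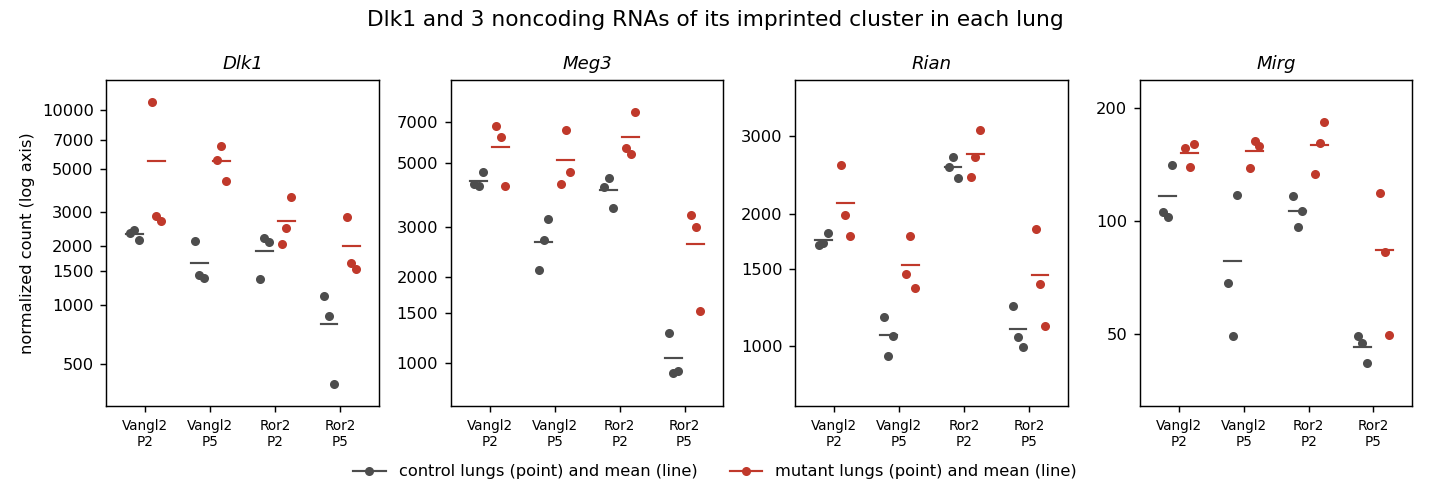
Normalized count of *Dlk1*, *Meg3*, *Rian* and *Mirg* in each lung (y axis, log scale) in the 4 comparisons (x axis), controls in grey, mutants in red, lines at the means. The mean is higher in mutants in every panel and comparison, and the separation of *Dlk1* is clearest in *Vangl2* P5 and *Ror2* P5.

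Of the full list of other imprinted genes, 39 of 43 were tested in each comparison. In *Vangl2* P2 0 of them rose and 1 fell: *Ddc*, which encodes the enzyme that makes dopamine and serotonin, went from 338, 315 and 295 to 97.2, 148 and 183 (log2 fold change -1.18 ± 0.24 (SE), adjusted p = 0.041). It lies next to *Grb10*. In *Vangl2* P5 0 passed (1 with the block, *Meg3*), and 0 passed in *Ror2* P2 and 0 in *Ror2* P5. The median log2 fold change of the list was -0.06, -0.04, -0.03 and -0.02 in *Vangl2* P2, *Vangl2* P5, *Ror2* P2 and *Ror2* P5, beside medians over all genes of 0.001, 0.003, -0.006 and 0.004. In *Vangl2* P5, where *Dlk1* rose, 19 of the 39 had a higher and 20 a lower mean in mutants.

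*Cdkn1c*, the cyclin-dependent kinase inhibitor, was the only one of the 9 called in *Vangl2* P2. Its normalized count was 2847, 2818 and 2826 in control and 4969.6, 3969 and 3731 in mutant lungs. The controls lay close together, every mutant was above them, and the mean rose from 2830.3 ± 15.0 (SD, n = 3) to 4223 ± 657 (SD, n = 3) (log2 fold change 0.57 ± 0.12 (SE), adjusted p = 0.0457, limma; adjusted p = 0.0487 with edgeR on whole reads). The call is near the threshold: it was lost when values were scaled to each lung's total (adjusted p = 0.0524) and without control replicate 1 (0.13), 2 (0.205) or 3 (0.168) or mutant replicate 2 (0.107).

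Elsewhere *Cdkn1c* had a higher mean in mutants and did not pass. In *Vangl2* P5 it was 1617, 1939.6 and 1948 in control and 2747, 2593 and 2127 in mutant lungs, without overlap (log2 fold change 0.44 ± 0.15 (SE), adjusted p = 0.182). In *Ror2* P5 the 2 controls were 1559 and 1462 and the mutants 3413, 2732 and 1948, again without overlap (log2 fold change 0.80 ± 0.21 (SE), adjusted p = 0.162). DESeq2 on whole reads called this difference (adjusted p = 0.00842), and so did limma without mutant replicate 3 (log2 fold change 1.02, adjusted p = 0.0209), the mutant lung nearest to the controls. In *Ror2* P2 the groups overlapped, with 2293, 2253 and 2254 in control and 2687, 2230.1 and 4008 in mutant lungs (log2 fold change 0.35 ± 0.20 (SE), adjusted p = 0.351). *Dlk1* and *Cdkn1c* each had every mutant above every control in 3 of the 4 comparisons, as did 4.62% of all genes in at least 3.

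Of the 6 other cyclin-dependent kinase inhibitors, 0 rose and 1 fell in *Vangl2* P2, and 0 passed in each of the other comparisons (1 lower in *Vangl2* P5 with the block). The one that fell, *Cdkn2c*, an inhibitor of CDK4 and CDK6, went from 347, 472 and 518 to 74.4, 145 and 205 (log2 fold change -1.75 ± 0.35 (SE), adjusted p = 0.041). It also lay lower in every mutant lung in the other 3 comparisons (log2 fold changes of -1.08, -1.33 and -0.81 in *Vangl2* P5, *Ror2* P2 and *Ror2* P5). Of all genes, 4.43% had every mutant below every control in at least 3 comparisons. The 25 proliferation genes, which cells express while they replicate DNA and divide, fell together in *Vangl2* P2, where 25 of 25 passed (median log2 fold change -1.78). *Plk1*, a kinase that drives mitosis, was 734, 1096 and 838 in control and 277, 312 and 306 in mutant lungs there (log2 fold change -1.56 ± 0.16 (SE), adjusted p = 0.0248). All 25 had lower means in mutants in each of the other comparisons too, with 0 of them past the test and medians of -0.59, -1.77 and -0.78 (2 of 25 passed in *Vangl2* P5 with the block). Their summed normalized count was 31023 to 48803 in control and 8744 to 17744 in mutant lungs of *Vangl2* P2, 31400.5 to 52980.4 and 24181 to 36318 in *Vangl2* P5, and 23238 to 46222 and 4651 to 24652 in *Ror2* P2. In *Ror2* P5, over the 18 genes with values in all lungs, it was 18878 to 25848 and 8038 to 18729. Within each of the 4 mutant groups the order of the 3 lungs by *Cdkn1c* was the reverse of their order by this sum. In *Ror2* P2, for example, mutant replicate 3 had the highest *Cdkn1c* and a sum of 4651, and mutant replicate 2 the lowest *Cdkn1c* and a sum of 24652. The order was also the reverse among the controls of *Vangl2* P2 and *Vangl2* P5. It was not among the controls of *Ror2* P2, or among those of *Ror2* P5 with a value of *Cdkn1c*. The reverse order was noticed after the values were seen, and a relation between *Cdkn1c* and proliferation was not tested.

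*Mest* and *Grb10* had lower means in the mutants of all 4 comparisons, and neither passed the test without a block in any of them. *Mest* had normalized counts of 17694, 18557 and 20266 in control and 8308, 13853 and 15728 in mutant lungs of *Vangl2* P2, without overlap (log2 fold change -0.63 ± 0.22 (SE), adjusted p = 0.159). Without mutant replicate 1 the log2 fold change was -0.35 (adjusted p = 0.141), and without mutant replicate 3 it was -0.81. In *Vangl2* P5 it was 16398, 14747 and 9428 in control and 10622, 8153 and 4595 in mutant lungs (log2 fold change -0.84 ± 0.34 (SE), adjusted p = 0.231). The groups overlapped through control replicate 3 and mutant replicate 1, and in both groups replicate 1 was the highest and replicate 3 the lowest. With the replicate numbers as a block the adjusted p was 0.0193, in a fit that called 8.95% of all genes. Without mutant replicate 3, the lung with thymus and muscle markers, the log2 fold change was -0.50 (adjusted p = 0.452). In *Ror2* P2 *Mest* was 30344, 19827 and 22550.0 in control and 18993, 22652 and 14089.5 in mutant lungs, which overlapped (log2 fold change -0.39 ± 0.22 (SE), adjusted p = 0.351). In *Ror2* P5 the 2 controls were 15339 and 13049.7 and the mutants 12728, 11832 and 11916, without overlap (log2 fold change -0.22 ± 0.10 (SE), adjusted p = 0.312). *Copg2*, a coat protein gene that overlaps *Mest* on the opposite strand, differed by -0.07, -0.17, -0.16 and -0.18 in *Vangl2* P2, *Vangl2* P5, *Ror2* P2 and *Ror2* P5, none past the test. Whether reads were counted by strand is not given in the sources used here, so reads of overlapping genes cannot be told apart.

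*Grb10*, the adaptor that dampens insulin and IGF receptor signalling, had normalized counts of 11277, 12746 and 12887 in control and 7993, 9313 and 9644 in mutant lungs of *Vangl2* P2 (log2 fold change -0.46 ± 0.11 (SE), adjusted p = 0.0714). In *Vangl2* P5 they were 10792, 12155 and 10847 in control and 8958, 8423 and 4912 in mutant lungs (log2 fold change -0.65 ± 0.24 (SE), adjusted p = 0.208, and log2 fold change -0.37 without mutant replicate 3). In *Ror2* P5 they were 11718, 10530.1 and 10785 in control and 6695, 8423 and 9691 in mutant lungs (log2 fold change -0.43 ± 0.13 (SE), adjusted p = 0.179). Every mutant lay below every control in these 3 comparisons, as 4.43% of all genes did in at least 3. In *Ror2* P2 mutant replicate 2 (9264) lay above the lowest control (9076), with log2 fold change -0.33 ± 0.13 (SE), adjusted p = 0.241. *Grb10* passed in *Vangl2* P2 with DESeq2 (adjusted p = 0.00646) and without mutant replicate 3 (0.0327), when *Mest* passed as well (0.0446), and in *Ror2* P5 without mutant replicate 3 (0.0455).

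Most markers of mesenchyme had lower means in mutants, as *Mest* and *Grb10* had. The part of mesenchyme in these differences was not tested. Of 18 matrix fibroblast markers tested, 0 rose and 3 fell in *Vangl2* P2 (*Col1a1*, *Col6a3* and *Dpt*), 0 passed in *Vangl2* P5 (3 lower with the block), 0 in *Ror2* P2, and 1 fell in *Ror2* P5 (*Ogn*). In these comparisons 7, 4, 5 and 5 of the 18 went the other way, with higher means in mutants. The list's median log2 fold changes were -0.20, -0.60, -0.31 and -0.35. The summed normalized count of the list was 192892 to 208822 in control and 145569 to 163190.0 in mutant lungs of *Vangl2* P2, 227833 to 257679 and 111153 to 189675 in *Vangl2* P5, and 180743 to 202028 and 133454 to 170823 in *Ror2* P2. In *Ror2* P5, over the 13 markers with values in all lungs, it was 168961 to 193904 and 132191 to 173148. The sum was thus lower in every mutant lung except in *Ror2* P5, where the groups overlapped. Of 15 myofibroblast and smooth muscle markers, 1 fell in *Vangl2* P2 (*Myh11*) and 0 passed in *Vangl2* P5 (3 lower with the block), *Ror2* P2 or *Ror2* P5, with medians of -0.25, -0.56, -0.13 and -0.19.

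Some epithelial and mesothelial markers rose in *Vangl2* P2, the comparison in which *Cdkn1c* rose, and their part in the values of *Dlk1* and *Cdkn1c* was not tested. Of 11 alveolar type II markers, 3 rose in *Vangl2* P2 (*Sftpa1*, *Sftpd* and *Slc34a2*) and 0 passed elsewhere (3 higher in *Vangl2* P5 with the block). Their summed normalized counts were 383086 to 428875 in control and 431855 to 552350 in mutant lungs of *Vangl2* P2, and 203224 to 326168 and 297631 to 481490.0 in *Vangl2* P5. Of 10 alveolar type I markers 1 rose in *Vangl2* P2 (*Hopx*), and 0 passed in the other comparisons (1 higher and 1 lower in *Vangl2* P5 with the block). Their sums were 112270 to 136917 in control and 145155 to 181539 in mutant lungs of *Vangl2* P2. The sums of both lists overlapped between control and mutant in all comparisons but *Vangl2* P2. Of 7 mesothelial markers tested 1 rose in *Vangl2* P2 (*Krt19*, also a keratin of airway epithelium) and 0 passed elsewhere (2 higher in *Vangl2* P5 with the block). The sum over the 8 listed there was 8529 to 10571 in control and 9983 to 19156 in mutant lungs of *Vangl2* P2 and 4307 to 7493 against 8761 to 10475 in *Vangl2* P5. In the P2 lung with the outlying *Dlk1*, mutant replicate 1, the sum was 18160.4, below that of mutant replicate 3 (19156), whose *Dlk1* was the lowest of the mutants. Skeletal muscle, brown fat and cartilage markers, of tissues whose precursors are known to express *Dlk1*, had 0 genes past the test in each comparison (1 skeletal muscle marker higher in *Vangl2* P5 with the block). In that lung their sums were 582, 206 and 664, against control ranges of 162 to 507, 251 to 299.8 and 483 to 898. In *Vangl2* P5 mutant replicates 1 and 2, with the 2 highest *Dlk1* values, the skeletal muscle sums were 179.6 and 161, against 105 to 212 in controls. Their brown fat sums were 987 and 150, against 218, 118 and 4596 in control replicates 1, 2 and 3. Their cartilage sums were 643 and 761, against 508 to 790 in controls. The part of such tissue in the *Dlk1* values was not tested. None of 14 endothelial, 9 cardiac muscle or up to 9 thymus and lymphoid markers tested passed in any comparison (3 endothelial markers fell in *Vangl2* P5 with the block). In *Vangl2* P5 13 of the 14 endothelial markers lay lower in mutants (median log2 fold change -0.49). Their summed normalized count there was 98577 to 107883 in control and 59541 to 93479 in mutant lungs. Their medians were 0.02, 0.24 and 0.04 in *Vangl2* P2, *Ror2* P2 and *Ror2* P5. Of 3 erythroid markers tested, 1 fell in *Vangl2* P2 (*Alas2*) with 0 past the test elsewhere (1 lower in *Vangl2* P5 with the block).

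*Igf2* and *H19*, which share enhancers, did not pass the test in any comparison, and their directions differed between comparisons. In *Vangl2* P2 *Igf2* was 6309, 6494 and 7224 in control and 11147, 6904 and 10243 in mutant lungs, where mutant replicate 2 overlapped the controls (log2 fold change 0.47 ± 0.18 (SE), adjusted p = 0.175). In *Vangl2* P5 it was 3885, 4131 and 4244 against 3177, 4631 and 4528 (log2 fold change -0.01 ± 0.17 (SE), adjusted p = 0.983), a value near 0 whose sign turned under scaling to totals or TMM. In *Ror2* P2 it was 7303, 7285 and 6819 against 7532, 6235 and 6960.2 (log2 fold change -0.05 ± 0.091 (SE), adjusted p = 0.78). In *Ror2* P5 the 2 controls were 2218 and 1867 and the mutants 5172, 2681 and 1803, so that mutant replicate 1 alone stood high (log2 fold change 0.52 ± 0.39 (SE), adjusted p = 0.501, and log2 fold change 0.11 without it). *H19* was also highest in that lung, with 6374 and 5317 in control and 10645, 8189.8 and 5549.8 in mutant lungs (log2 fold change 0.43 ± 0.25 (SE), adjusted p = 0.401). In *Vangl2* P2, *Vangl2* P5 and *Ror2* P2 the log2 fold changes of *H19* were 0.10, -0.27 and -0.22, with overlapping lungs in each. The 95% interval of the log2 fold change of *Igf2* ran from -0.26 to 0.16 in *Ror2* P2 and, with 2 controls, from -0.41 to 1.46 in *Ror2* P5.

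*Igf2r*, the receptor that removes IGF2, had lower means in mutants in all 4 comparisons on the log2 scale of the test, as 21% of genes had. In RPM, with 2 controls, its *Ror2* P5 means were 222 ± 16.3 in control and 223 ± 1.57 in mutant lungs and were not lower in mutants. The differences were small, with log2 fold changes of -0.23 ± 0.11, -0.32 ± 0.20, -0.22 ± 0.11 and -0.14 ± 0.09 (SE) in *Vangl2* P2, *Vangl2* P5, *Ror2* P2 and *Ror2* P5. The lungs were apart only in *Vangl2* P2, at 6268, 6867 and 5956 in control and 5702, 5688 and 4852 in mutant lungs (adjusted p = 0.241). *Airn*, the noncoding RNA that overlaps *Igf2r* on the opposite strand, differed by -0.41, -0.25, 0.18 and -0.13, also without passing.

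Among the other genes of the IGF axis, of which 24 were tested at P2 and 23 at P5, 2 rose and 0 fell in *Vangl2* P2, 0 passed in *Vangl2* P5 (2 rose and 2 fell with the block), 0 in *Ror2* P2, and 0 rose and 1 fell in *Ror2* P5. The list's median log2 fold change was 0.16, 0.03, 0.11 and 0.10 in these comparisons. *Irs2*, which carries the signal of the insulin and IGF receptors, rose from 394, 460.0 and 456 to 1906, 796 and 1047 in *Vangl2* P2 (log2 fold change 1.42 ± 0.29 (SE), adjusted p = 0.041). *Igf2bp2*, which encodes an RNA-binding protein named for its binding to *Igf2* mRNA, rose there from 1314, 1148 and 994 to 2872, 1967 and 1979 (log2 fold change 0.97 ± 0.17 (SE), adjusted p = 0.0326), and its log2 fold changes of 0.75, 0.79 and 0.81 in *Vangl2* P5, *Ror2* P2 and *Ror2* P5 had no overlap of lungs. *Stc1*, a secreted inhibitor of the protease that frees IGF from its binding proteins, fell in *Ror2* P5 from 1029, 1296 and 1281 to 615, 564 and 566 (log2 fold change -1.04 ± 0.10 (SE), adjusted p = 0.0305). *Igfbp2*, an IGF-binding protein that is also a marker of alveolar type I cells, had every mutant below every control in all 4 comparisons without passing, with log2 fold changes of -0.95, -1.63, -1.24 and -2.05 (adjusted p = 0.00967 in *Vangl2* P5 with the block). Of all genes, 4.43% had every mutant below every control in at least 3 comparisons, and 4.62% had every mutant above. The log2 fold change of *Irs2* was 0.01 in *Vangl2* P5, 0.70 in *Ror2* P2 and -0.60 in *Ror2* P5.

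*Plagl1* and *Peg3*, the zinc finger genes, did not pass the test in any comparison. *Plagl1* was 8039, 7909 and 7635 in control and 8046, 7496 and 8035 in mutant lungs of *Vangl2* P2, with an interval of the log2 fold change of -0.20 to 0.20. Its log2 fold changes were -0.19, 0.16 and 0.08 in *Vangl2* P5, *Ror2* P2 and *Ror2* P5, with overlapping lungs in each. In *Vangl2* P5 the lowest lung was mutant replicate 3, the lung with thymus and muscle markers (2856 against 6124 and 5886), and without it the sign turned (0.16). *Peg3* was 5122, 3299 and 5772 in control and 9536, 7164 and 5609 in mutant lungs of *Vangl2* P2 (log2 fold change 0.66 ± 0.25 (SE), adjusted p = 0.175), and differed by 0.06, 0.35 and -0.01 in *Vangl2* P5, *Ror2* P2 and *Ror2* P5.

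**Figure D4:**
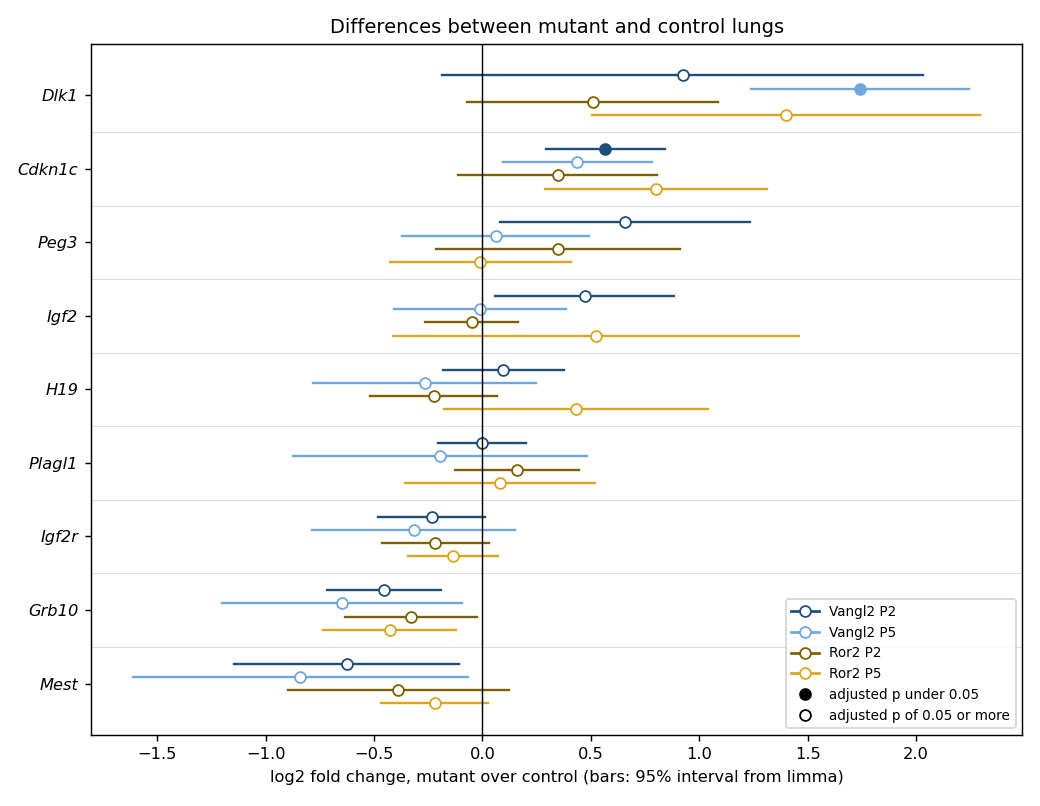
Log2 fold change of mutant over control (x axis) for each gene (y axis) in the 4 comparisons, by colour. Bars are 95% intervals from limma without a block, and filled points have an adjusted p under 0.05 over all genes in that fit. *Dlk1* and *Cdkn1c* lie above 0 and *Mest*, *Grb10* and *Igf2r* below 0 in all 4 comparisons, with a filled point for *Dlk1* in *Vangl2* P5 and for *Cdkn1c* in *Vangl2* P2 only.

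The genes of a further list of 24, which like many of the 9 are known to decline in several organs after birth, fell in part. In *Vangl2* P2 0 rose and 4 fell: *Ezh2*, the methyltransferase of Polycomb, the transcription factors *E2f1* and *E2f3*, and *Ccnd1*, a cyclin of the G1 phase. *Ezh2* went from 983, 1199 and 1020.0 to 648, 585 and 572 (log2 fold change -0.82 ± 0.12 (SE), adjusted p = 0.0289) and *E2f1* from 772, 922 and 778 to 173, 317 and 375 (log2 fold change -1.58 ± 0.27 (SE), adjusted p = 0.0326). None of the 24 passed in *Vangl2* P5 (4 fell with the block), *Ror2* P2 or *Ror2* P5. The median of the list was -0.35, -0.37, -0.27 and -0.29 in the 4 comparisons. *E2f1*, *E2f3* and *Ccnd1* act in the cell cycle.

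Whether the differences changed with age or between the mutants was tested on the difference of the mutant-control contrasts, over 12 lungs each. None of the 9 genes passed in any of 4 such tests (limma), in which 0% (age, *Vangl2*), 0% (age, *Ror2*), 0% (mutants, P2) and 0.0118% (mutants, P5) of all genes passed. *Dlk1* differed by 0.82 (95% interval -0.46 to 2.10) between *Vangl2* P5 and *Vangl2* P2 (P5 minus P2) and by 0.89 (95% interval -0.25 to 2.03) between *Ror2* P5 and *Ror2* P2, with adjusted p of 0.693 and 0.601. *Ror2* minus *Vangl2*, it differed by -0.41 (95% interval -1.77 to 0.94) at P2 and -0.34 (95% interval -1.42 to 0.74) at P5. The intervals are wide, and do not show that *Dlk1* responded alike in both mutants. *Cdkn1c* differed by -0.22 (95% interval -0.76 to 0.32) at P2 and 0.36 (95% interval -0.24 to 0.97) at P5. The lowest unadjusted p was that of *Igf2* at P2, -0.52 (95% interval -0.99 to -0.05) (unadjusted p = 0.0326 and adjusted p = 0.946), and 4.6% of all genes had an unadjusted p under 0.05 in that test. In the tests of age in *Vangl2*, of age in *Ror2* and of the mutants at P5, 0 of the 9 had an unadjusted p under 0.05, against 8.44%, 9.51% and 4.73% of all genes.

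Lungs of the same group also varied, and the 9 genes did not vary as a single set. For each gene the deviation of its log2 value from the mean of its group was taken over the 24 lungs (23 for genes with a missing lung), and Pearson's r between genes was computed as a description. The lungs share libraries, depth and cell makeup across genes, and no test was run. *Grb10* and *Mest* varied together (r = 0.70), as did *Igf2r* with *Grb10* (0.62), with *Plagl1* (0.62) and with *Mest* (0.57). *Vangl2* P5 mutant replicate 3, the lung with thymus and muscle markers, had the lowest deviation of each of these genes. It was -0.68 for *Mest*, -0.71 for *Plagl1*, -0.55 for *Grb10* and -0.35 for *Igf2r*. How far r rests on that lung was not tested. *Igf2* and *H19* varied together (r = 0.60), and *Cdkn1c* with *Igf2* (0.54), *Plagl1* (0.54), *Dlk1* (0.53) and *Peg3* (0.51). *Igf2* and *Grb10* varied in opposite directions (-0.53).

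**Figure D5:**
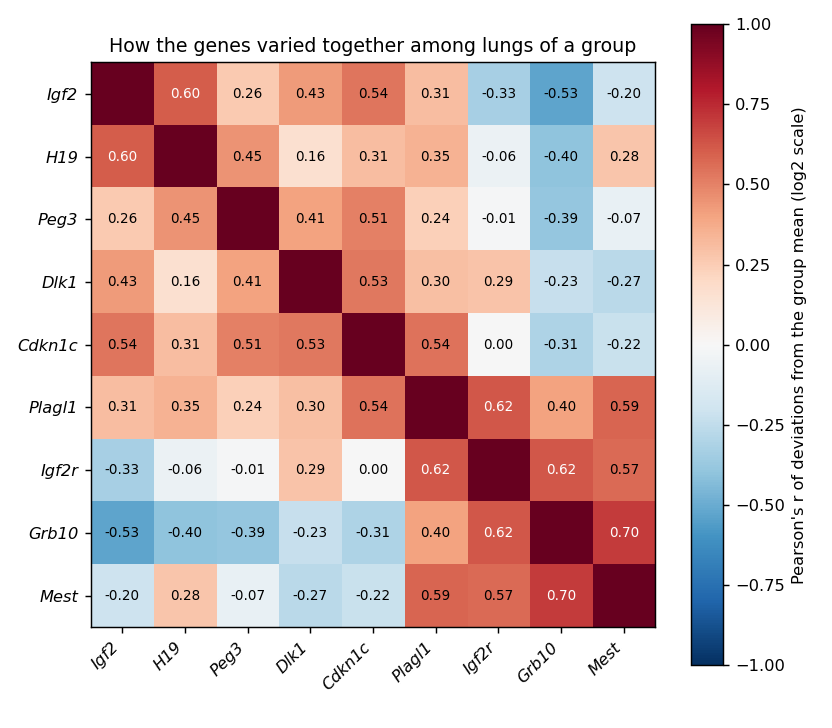
Pearson's r between the deviations of each pair of genes from their group means (log2 scale), over 23 or 24 lungs; red is positive and blue negative. *Mest*, *Grb10*, *Igf2r* and *Plagl1* form 1 block of positive values (0.40 to 0.70), and *Igf2*, *H19*, *Peg3*, *Dlk1* and *Cdkn1c* another (0.16 to 0.60). The blocks are not cleanly apart. *Plagl1* had positive values with all genes of the second block, from 0.24 (*Peg3*) to 0.54 (*Cdkn1c*). Other pairs across the blocks ran from -0.53 (*Igf2* and *Grb10*) to 0.29 (*Dlk1* and *Igf2r*). *Mest*, *Grb10*, *Igf2r* and *Plagl1* each had their lowest deviation in the same lung, *Vangl2* P5 mutant replicate 3.

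Set against all 12654 other well expressed genes, *H19* was at rank 170 in likeness to *Igf2*, and *Igf2* at rank 78 in likeness to *H19*. *Mest* was at rank 571 in likeness to *Grb10*, and *Cdkn1c* at rank 507 in likeness to *Dlk1*, so in each case genes outside the 9 came nearer. The 3 most like *Grb10* were *Cald1* (r = 0.95), *Snai2* (r = 0.95) and *Pde5a* (r = 0.94) (an actin-binding protein of smooth muscle, a transcription factor of mesenchyme and a phosphodiesterase of smooth muscle). For *Mest* they were *Rsl24d1* (r = 0.90), *Itga2* (r = 0.88) and *Stc1* (r = 0.88), and for *Cdkn1c* *Ankrd29* (r = 0.90), *Stx3* (r = 0.87) and *Ids* (r = 0.87). For *Igf2* they were *C3* (r = 0.86), *Gprc5b* (r = 0.84) and *Usp53* (r = 0.83), and for *H19* *Ston2* (r = 0.81), *Atp13a3* (r = 0.80) and *Trabd* (r = 0.77). The gene most like *Dlk1* was *Rnf10* (r = 0.83). The 3 most like *Plagl1* were *Sap18* (r = 0.88), *Ppfibp1* (r = 0.83) and *Camk2d* (r = 0.80), for *Peg3* *Bsdc1* (r = 0.89), *Slc10a6* (r = 0.86) and *A430105I19Rik* (r = 0.86), and for *Igf2r* *Slc18b1* (r = 0.81), *Socs6* (r = 0.81) and *Nrk* (r = 0.80).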

How the data were processed

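RNA-seq was performed on 24 left lung lobes (3 per group). The submitters' processing notes name mm10 and DESeq2 without a role or version, and the aligner, counter, annotation and strand setting are not given in the sources used here. The values deposited by the authors are a signal, the reads on each of 23420 genes divided by the size factor of each lung, set within each of 4 tables. Dividing by the smallest step of a lung gave whole reads in all 24 (values within 0.02 of a whole read), with 13823693 to 21546673 reads on genes per lung. The authors' own comparison columns (means, fold changes and p-values) were not used, and 0 columns lacked a sample.

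A gene entered a comparison if 3 or more of its 6 lungs had a normalized count of 1 or higher. The test was limma (version 3.58.1, R 4.3.3; lmFit, eBayes with a variance trend) on log2(normalized count + 1), mutant against control within a table, with Benjamini-Hochberg adjustment over all genes and a threshold of 0.05. The added 1 makes fold changes of low genes too small. Differences between comparisons were fitted over 12 lungs. edgeR 4.0.16 (quasi-likelihood, TMM) and DESeq2 1.42.0 on whole reads, other pseudocounts (0.5 and 5), filters and scalings, a replicate block and leaving out each lung in turn were tried as alternatives. The limma step was tested on simulated data. Replicates are numbered in the labels without naming animals, so p-values measure the spread between these lungs. In the 24 pairs of lungs of a group 0 were identical, and counts differed beyond sampling noise in each (chi-square per degree of freedom 12.3 to 91.2).

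Whether same-numbered lungs are paired was checked from the correlation of their deviations from the group means. It was 0.463, 0.462 and 0.277 in *Vangl2* P5, where the numbers were taken to pair the lungs. Values with the block are given there for *Dlk1* and where a call changes, beside the main test, which has no block. In the other comparisons at least 1 pair was under 0.1.

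The 9 genes and all gene lists were chosen with earlier results of these data known. All 9 are named. From another list at most 4 genes past the test in a comparison are named, or 2 with the lowest unadjusted p where none passed. *Mirg*, *Airn* and *Copg2* were named outside this rule after their values were seen. Coordinates are from GENCODE (mm10), exon lengths likewise, and promoter sequences from RefSeq (GRCm38.p6).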

Additional observations from a re-analysis of the deposited data

How the results depend on the processing

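The direction of *Dlk1*, *Cdkn1c*, *Grb10* and *Igf2r* in the 4 comparisons was the same under every alternative run. The number of the 9 genes called in *Vangl2* P2 went from 1 to 0 with scaling to totals, to 0 without the variance trend and to 2 with DESeq2, and lay between 0 and 3 when a lung was left out. In *Vangl2* P5 it went from 1 to 2 with the replicate block (*Dlk1* and *Mest*), to 0 without the trend and lay between 0 and 1 with a lung left out. In *Ror2* P5 it went from 0 to 1 with DESeq2 and lay between 0 and 2 with a lung left out. The replicate block changed no other call of the 9 genes, and in *Vangl2* P2, *Ror2* P2 and *Ror2* P5 it called 1, 0 and 0. Without the trend, *Cdkn1c* in *Vangl2* P2 had an adjusted p of 0.125 and *Dlk1* in *Vangl2* P5 of 0.0757. The causes were not tested.

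Over all genes, DESeq2 called 1913, 1199, 666 and 799 in *Vangl2* P2, *Vangl2* P5, *Ror2* P2 and *Ror2* P5, against 626, 98, 0 and 22 with limma and 1, 4, 2 and 11 without the trend. With the replicate block the counts were 795, 1558, 1 and 1, and with scaling to totals 193 in *Vangl2* P5 and 35 in *Ror2* P5. With a lung left out they lay between 1 and 2333, 0 and 54, 0 and 859 and 0 and 817, and with control replicate 1 kept as listed 1 was called in *Ror2* P5. In the test of the mutants at P5, 2 genes were called and 4 with scaling to totals.

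With all lungs in the fit, signs that turned belonged to values near 0 or came with the lung that lacks chromosomes 6 to 9 and X. *Igf2* in *Vangl2* P5 was 0.086 with scaling to totals, 0.0026 with TMM, 0.021 with edgeR and 0.0090 with DESeq2. *Peg3* in *Ror2* P5 was 0.037 with scaling to totals, 0.0073 with edgeR and 0.0071 with DESeq2. With scaling to totals the age difference of *Cdkn1c* in *Vangl2* was 0.033, that of *Igf2r* in *Vangl2* 0.080 and that of *Plagl1* in *Ror2* 0.00057. With control replicate 1 of *Ror2* P5 kept as listed, *Mest* was 4.38 and *Peg3* 3.85, and for *Peg3* the age difference in *Ror2* was 3.50 and the mutant difference at P5 3.78.

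With a lung left out, *Plagl1* ranged from -0.022 to 0.033 in *Vangl2* P2, -0.39 to 0.16 in *Vangl2* P5 and -0.13 to 0.29 in *Ror2* P5, *Igf2* from -0.11 to 0.17 in *Vangl2* P5 and -0.11 to 0.022 in *Ror2* P2, and *Peg3* from -0.060 to 0.24 in *Vangl2* P5 and -0.18 to 0.12 in *Ror2* P5. The age difference in *Vangl2* ranged from -0.49 to 0.13 for *Mest*, -0.39 to 0.16 for *Plagl1*, -0.35 to 0.083 for *Grb10* and -0.23 to 0.093 for *Igf2r*, and that in *Ror2* from -0.018 to 0.32 for *Mest*, -0.29 to 0.13 for *Plagl1* and -0.22 to 0.045 for *Grb10*. The mutant difference at P2 ranged from -0.093 to 0.082 for *Igf2r*, -0.77 to 0.25 for *Dlk1* and -0.038 to 0.42 for *Mest*, and that at P5 from -0.25 to 0.061 for *Peg3*, -0.081 to 0.48 for *Plagl1* and -0.055 to 0.38 for *Grb10*. The lowest normalized count of any of the 9 genes in a lung used was 397 (*Dlk1*). With 3 lungs a group, differences within the spread between lungs could not be resolved.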
